A study of Mus musculus with 4 samples.

Results

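The 8 genes described here, Mgmt, Alkbh2, Alkbh3, Mpg, Apex1, Xrcc1, Polb and Msh6, encode proteins that handle alkylated bases in DNA, and they were taken by name from the 35522 genes listed for each mouse liver library. All 8 were found once each, and all 8 passed the filter on low counts that left 13303 genes to test. The libraries came from C57BL/6 livers labelled Dph1 KO (n = 2) or Control (n = 2). Every liver of both groups had been exposed to diethylnitrosamine (DEN) and was taken 24 h later. Dph1 encodes a subunit of the enzyme that begins the synthesis of diphthamide, a modified histidine in the translation elongation factor eEF2. The part of Dph1 that was removed and the cells in which it was removed are details that the sources used here do not give. No liver without DEN was analysed here, so a response to DEN and a standing difference between the genotypes cannot be told apart.

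DEN is taken up by hepatocytes and activated there by cytochrome P450 enzymes, chiefly Cyp2e1 and Cyp2a5, to a reactive species that ethylates DNA. Cells remove such lesions by several routes. Mgmt takes the alkyl group from the oxygen of guanine onto a cysteine of its own and is used up in doing so, while Alkbh2 and Alkbh3 oxidise alkyl groups off ring nitrogens. In base excision repair, Mpg cuts the alkylated base from its sugar, Apex1 nicks the strand at the bare sugar, Polb fills the gap, and Xrcc1 is the scaffold that holds the ligase Lig3 there. Msh6, a protein of mismatch repair, recognises mispairs, including those that alkylated guanine makes when it is copied.

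The label check came out as a lower level of Dph1. Dph1 had 17.8 and 31.5 CPM in Dph1 KO livers, against 70.3 and 68.3 CPM in Control livers, where CPM are total gene reads relative to the library total, scaled by TMM, which sets libraries to a common scale. Its transcripts fell in Dph1 KO livers and were still present (log2 fold change -1.49, SE 0.26; adjusted p = 0.0107 by edgeR's quasi-likelihood test with Benjamini-Hochberg adjustment). Many of its reads were not uniquely matched. Of 421 and 689 reads in Dph1 KO livers 194 and 291 were unique, and of 1292 and 1228 in Control livers 762 and 722 were. Unique reads alone gave a log2 fold change of -1.93. Total gene reads ranged from 19474596 to 21137358 per library. The 6 hepatocyte markers found among 7 listed summed to 56632 and 57822 CPM in Dph1 KO livers, against 70207 and 88025 CPM in Control livers, and none of them was at 0. Their median log2 fold change was -0.003. The Dph1 KO libraries differed from each other more than the Control libraries did, by a chi-square over its degrees of freedom of 77.3 in Dph1 KO and 29.7 in Control. The labels do not say that the libraries are from separate animals, so a p-value here speaks only of the spread among these samples, and that spread may be technical. The smallest two-sided exact permutation p for 2 against 2 libraries is 0.333, so each call rests on the spread that edgeR shares across genes.

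Of the 8 repair genes, 0 rose, 1 fell and 7 were not called at an adjusted p under 0.05, in a fit that called 12.3% of all genes tested (4.86% higher and 7.47% lower in Dph1 KO). The gene that fell was Alkbh2. Msh6 and Polb were higher in both Dph1 KO livers than in either Control liver, and Alkbh2, Mpg and Apex1 were lower in both, without overlap. The groups of Mgmt, Alkbh3 and Xrcc1 overlapped. The 5 of 8 genes without overlap stand beside 67.4% of all genes tested, made up of 34.9% higher and 32.5% lower in both Dph1 KO libraries. DESeq2 also called 1 of the 8, again Alkbh2 (log2 fold change -0.82, adjusted p = 0.0351), where it called 15.9% of genes. At an unadjusted p under 0.05, 1 of the 8 was higher and 1 lower, where 34.2% of all genes tested were past that level. The median log2 fold change was -0.19 over the 8 genes and 0.04 over all genes tested. In bulk RNA, fewer cells of a type and less RNA per cell cannot be told apart.

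**Figure D1:**
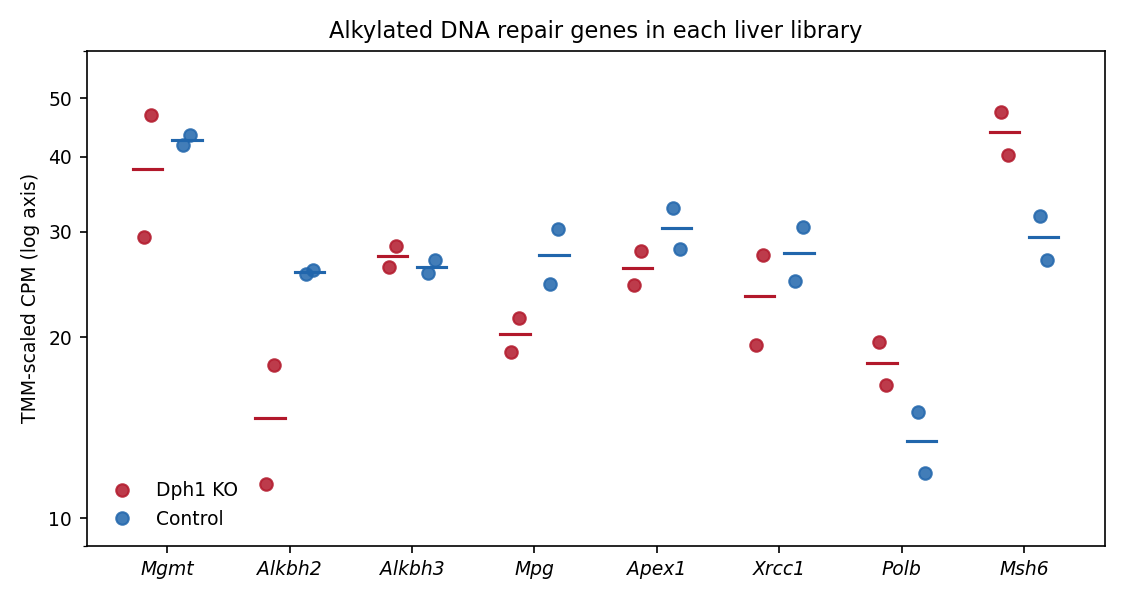
TMM-scaled CPM (log axis) of the 8 repair genes in each library, Dph1 KO in red on the left of each gene and Control in blue on the right, with a bar at the group mean (n = 2 each). Both Dph1 KO points lie below both Control points for Alkbh2 and above them for Msh6, and those of Mgmt spread from 29.3 to 46.9 CPM around the Control points.

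The upstream sequences of Alkbh2 and Msh6, the genes with the lowest and the highest fold change of the 8, are given for context. Each is the stretch of 250 bases before the RefSeq start on GRCm38.p6, written on the strand of its gene, at chr5:114128219-114128468 (minus strand) for Alkbh2 and chr17:87974800-87975049 (plus strand) for Msh6. Capitals mark the GC box GGGCGG and the CCAAT box CCAAT, on either strand.
Alkbh2: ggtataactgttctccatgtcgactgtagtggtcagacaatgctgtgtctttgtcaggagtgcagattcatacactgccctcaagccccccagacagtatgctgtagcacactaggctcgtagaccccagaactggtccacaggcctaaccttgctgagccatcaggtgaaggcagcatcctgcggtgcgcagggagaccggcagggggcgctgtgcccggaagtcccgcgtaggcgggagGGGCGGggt
Msh6: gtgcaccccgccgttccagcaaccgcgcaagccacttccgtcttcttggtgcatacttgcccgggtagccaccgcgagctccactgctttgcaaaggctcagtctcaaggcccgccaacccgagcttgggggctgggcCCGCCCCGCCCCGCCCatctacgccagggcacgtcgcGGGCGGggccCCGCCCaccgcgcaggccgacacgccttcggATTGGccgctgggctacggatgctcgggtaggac
The Alkbh2 window held 1 GC box and no CCAAT box. The Msh6 window held 5 GC boxes, some of which overlap each other by a base, and 1 CCAAT box. Among the 32851 RefSeq windows of this length, 32.7% held GGGCGG and 33.8% held CCAAT on either strand. The Msh6 window was 70.8% G and C with 27 CpG dinucleotides and the Alkbh2 window 60% with 11, against medians of 52.4% and 6 over all windows. RefSeq windows were matched for 7 of the 8 genes, and those of Mgmt, Alkbh3, Mpg, Apex1 and Xrcc1 ranged from 49.2% G and C in Xrcc1 to 67.2% in Mgmt. The RefSeq start of Xrcc1 lay 451 bases upstream of the gene start used for the read counts, against 0 to 42 bases for the others. The windows of Msh6 and Apex1, with 27 and 28 CpG dinucleotides, stood above the other 5, which held 5 to 15.

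Mgmt was the most abundant of the 8 genes in each group in TPM, which are per length, and its level did not separate the genotypes. Mgmt (gene ID 17314; GRCm38 chromosome 7, 136894611 to 137128188, plus strand, 5 exons) had 692 and 1025 reads in Dph1 KO livers, against 770 and 780 in Control livers. In CPM these were 29.3 and 46.9 in Dph1 KO livers, against 41.9 and 43.4 in Control livers. One Dph1 KO library lay below both Control libraries and the other above them. The means were 38.1 ± 12.4 CPM in Dph1 KO and 42.6 ± 1.06 CPM in Control (SD, n = 2 each), with a log2 fold change of -0.16 (SE 0.24; edgeR adjusted p = 0.651). The sign was not stable, since it turned to 0.16 without Dph1 KO replicate 1 and was -0.52 without Dph1 KO replicate 2.

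Alkbh2 acts mainly on double-stranded DNA. Alkbh2 (gene ID 231642; chromosome 5, 114123934 to 114128176, minus strand, 4 exons) had 269 and 393 reads in Dph1 KO livers, against 468 and 465 in Control livers. Scaled, it had 11.4 and 18.0 CPM in Dph1 KO livers, against 25.5 and 25.9 CPM in Control livers. Both Dph1 KO libraries were below both Control libraries, which lay close together. The means were 14.7 ± 4.65 CPM in Dph1 KO and 25.7 ± 0.288 CPM in Control (SD, n = 2 each), and Alkbh2 fell with a log2 fold change of -0.81 (SE 0.24), a level 0.572 times that of Control. The call lay at the threshold, with an edgeR adjusted p of 0.0499. It was lost without either Control library or without Dph1 KO replicate 1 (edgeR adjusted p = 0.134, 0.180 and 0.0956) and in the fit that removes a trend on GC content described below, while the direction was the same in all 17 alternatives and the call was kept in 8.

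Alkbh3, the related enzyme that prefers single-stranded DNA and RNA, showed no such difference. Alkbh3 (gene ID 69113; chromosome 2, 93980634 to 94010730, minus strand, 10 exons) had 26.2 and 28.4 CPM in Dph1 KO livers, against 25.6 and 26.9 CPM in Control livers. The 4 values interleaved, and the log2 fold change was 0.06 (SE 0.19; edgeR adjusted p = 0.854). Exon reads alone gave -0.08. Set against each other per length, in the deposited TPM, which divide exon reads by exon length and by the library's sum, the level of Alkbh2 was 0.665 and 0.893 times that of Alkbh3 in Dph1 KO livers, against 1.36 and 1.37 times in Control livers. Alkbh2 was thus below Alkbh3 in both Dph1 KO libraries and above it in both Control libraries. These ratios were not tested, and TPM do not take out the trend on GC content described below. In the fit that removes it, log2 fold changes were -0.11 for Alkbh2 and 0.29 for Alkbh3, neither called.

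Other genes of direct reversal were limited to Alkbh1, a dioxygenase of the same family that acts mostly on RNA. Alkbh1 had 5.72 and 4.99 CPM in Dph1 KO livers, against 4.89 and 4.67 CPM in Control livers, with no call (log2 fold change 0.16, SE 0.25; edgeR adjusted p = 0.669). Of the 4 direct reversal genes tested, 0 rose and 1 fell, where 4.86% of all genes tested rose and 7.47% fell. Their median log2 fold change was -0.05, beside 0.04 over all genes tested. Ascc3, a helicase that in human cells opens DNA for ALKBH3, rose in Dph1 KO livers. It had 21.3 and 15.6 CPM in Dph1 KO livers, against 7.72 and 9.29 CPM in Control livers (log2 fold change 1.12, SE 0.23; edgeR adjusted p = 0.0191). Both Dph1 KO libraries were above both Control libraries, and the call was lost without Control replicate 1 and in the GC-corrected fit (log2 fold change 0.99 and 0.50). Of the 5 genes listed for the complex of Ascc3 with ALKBH3, 1 rose and 0 fell, beside the same shares of all genes. Their median was 0.00, beside 0.04 over all genes tested.

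In base excision repair the 4 genes Mpg, Apex1, Xrcc1 and Polb were not called. Mpg (gene ID 268395; chromosome 11, 32226505 to 32232702, plus strand, 4 exons), the glycosylase of alkylated purines, had 18.9 and 21.5 CPM in Dph1 KO livers, against 24.6 and 30.3 CPM in Control livers. Both Dph1 KO libraries were below both Control libraries, by a log2 fold change of -0.44 (SE 0.20; edgeR adjusted p = 0.150). Apex1 (gene ID 11792; chromosome 14, 50924949 to 50927188, plus strand, 5 exons), the endonuclease, had 24.5 and 27.8 CPM in Dph1 KO livers, against 32.8 and 28.1 CPM in Control livers. Its groups did not overlap but came within a few reads of doing so, and the log2 fold change of -0.22 (SE 0.20; edgeR adjusted p = 0.438) turned to 0.03 with scaling by library totals alone.

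Xrcc1 (gene ID 22594; chromosome 7, 24547150 to 24573438, plus strand, 17 exons) had 19.5 and 27.4 CPM in Dph1 KO livers, against 24.9 and 30.5 CPM in Control livers. Its groups overlapped, and its log2 fold change of -0.24 (SE 0.22; edgeR adjusted p = 0.463) was 0.02 without Dph1 KO replicate 1 and 0.01 with scaling by library totals alone. Polb (gene ID 18970; chromosome 8, 22628119 to 22653437, minus strand, 14 exons), the polymerase that fills the gap, had 19.6 and 16.6 CPM in Dph1 KO livers, against 15.0 and 11.9 CPM in Control livers. Both Dph1 KO libraries were above both Control libraries, with means of 18.1 ± 2.10 CPM in Dph1 KO and 13.5 ± 2.20 CPM in Control (SD, n = 2 each). The log2 fold change of 0.43 (SE 0.21) missed the threshold (edgeR adjusted p = 0.177), and the nearest libraries of the 2 groups, at 16.6 CPM in Dph1 KO and 15.0 CPM in Control, were closer together than the SD of either group. Mpg and Polb, which act at different steps of the same route with Apex1 between them, lay on opposite sides of Control, neither past the test.

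No other gene of base excision repair was called. Of 10 DNA glycosylase genes tested among 11 listed, 0 rose and 0 fell by edgeR, 0 were past an unadjusted p of 0.05, and DESeq2 called 0. Among all genes tested, edgeR called 12.3%, 34.2% were past that unadjusted level, and DESeq2 called 15.9%. The median log2 fold change of the 10 was -0.21, beside 0.04 over all genes tested. Besides Mpg, the genes of this list with the highest mean TPM were Tdg and Neil1. Tdg removes thymine from mispairs with guanine and also oxidised methylcytosine, and Neil1 removes oxidised pyrimidines. Tdg had 28.1 and 24.1 CPM in Dph1 KO livers, against 20.2 and 21.0 CPM in Control livers, all higher in Dph1 KO but not called (log2 fold change 0.34, SE 0.19; edgeR adjusted p = 0.229). Most Tdg reads were not uniquely matched. Of 663 and 528 in Dph1 KO livers 255 and 194 were unique, and of 372 and 377 in Control livers 145 and 141 were. Unique reads alone gave Tdg a log2 fold change of 0.32, also not called. Neil1 had 5.13 and 6.63 CPM in Dph1 KO livers, against 5.60 and 6.17 CPM in Control livers, with both Control values between the Dph1 KO values.

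Of the 17 genes for strand incision, gap filling and ligation, 0 rose and 0 fell by edgeR and DESeq2 called 0. Over all genes tested, edgeR called 12.3% and DESeq2 15.9%. At an unadjusted p under 0.05 by edgeR, 1 was higher and 1 lower, where 34.2% of all genes tested were past that level. The median of the 17 was 0.03, beside 0.04 over all genes tested. Among those with the highest mean TPM besides Apex1, Xrcc1 and Polb was Pcna, the sliding clamp of replication. Pcna had 14.5 and 15.4 CPM in Dph1 KO livers, against 15.0 and 14.3 CPM in Control livers, and its groups overlapped (log2 fold change 0.03, SE 0.20; edgeR adjusted p = 0.931).

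Msh6 had the highest fold change of the 8 genes and came close to the threshold without passing it. Msh6 (gene ID 17688; chromosome 17, 87975050 to 87990892, plus strand, 10 exons) had 1121 and 881 reads in Dph1 KO livers, against 586 and 483 in Control livers. Scaled, it had 47.5 and 40.3 CPM in Dph1 KO livers, against 31.9 and 26.9 CPM in Control livers. Both Dph1 KO libraries were above both Control libraries, with means of 43.9 ± 5.10 CPM in Dph1 KO and 29.4 ± 3.54 CPM in Control (SD, n = 2 each). The log2 fold change was 0.58 (SE 0.20), a ratio of 1.49, with an unadjusted p of 0.0152 and an adjusted p of 0.0762 (edgeR quasi-likelihood test). It was positive in all 17 alternatives, from 0.37 to 0.96, and past the threshold in 2 of them, scaling by library totals alone and the fit without Dph1 KO replicate 2.

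The other mismatch repair genes lay on the same side as Msh6. Of the 7 tested among 8 listed, 2 rose and 0 fell, where 4.86% of all genes tested rose. At an unadjusted p under 0.05, 5 of the 7 were higher in Dph1 KO, where 16.3% of all genes tested were. All 7 had both Dph1 KO libraries above both Control libraries, the arrangement of 34.9% of all genes tested. Their median log2 fold change was 0.85, with a range of 0.30 to 0.94. Exo1, the exonuclease of the pathway, had 1 and 1 reads in Dph1 KO livers, against 1 and 5 in Control livers, and was too low to test.

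Mlh3, a protein of the MutL family that acts after a mispair is recognised, rose. Mlh3 had 12.5 and 9.19 CPM in Dph1 KO livers, against 6.15 and 5.84 CPM in Control livers (log2 fold change 0.85, SE 0.24; edgeR adjusted p = 0.0444). Both of its Dph1 KO libraries were above both Control libraries. The call lay close to the threshold and was lost with DESeq2, limma-voom, exon junction reads alone and without either Control library or Dph1 KO replicate 1, and in each of these fits the list had 0 calls.

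Msh3, which takes part in recognising longer loops of unpaired bases, had 6.48 and 4.48 CPM in Dph1 KO livers, against 2.77 and 2.95 CPM in Control livers (log2 fold change 0.94, SE 0.29; edgeR adjusted p = 0.0586). Pms1 and Pms2, also of the MutL family, had log2 fold changes of 0.86 (edgeR adjusted p = 0.119) and 0.30 (edgeR adjusted p = 0.557) on at most 63 reads per library. None of these 3 genes was called. Since mismatch repair genes are expressed more in dividing cells, the proliferating cell markers were set beside them. Of the 7 such markers, 6 were tested and 0 were called, 4 were under 1 CPM in every library and none was at 0. They summed to 18.9 and 22.7 CPM in Dph1 KO livers, against 21.2 and 23.6 CPM in Control livers, while the median log2 fold change of the 6 tested was 0.24. Their part in the levels of the mismatch repair genes was not tested.

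**Figure D2:**
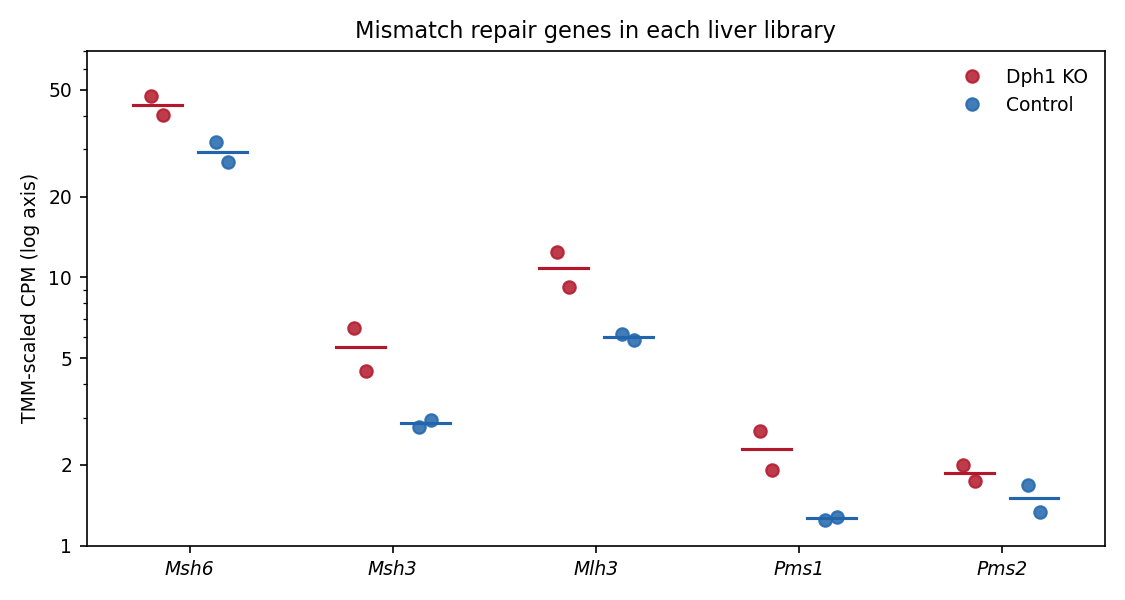
TMM-scaled CPM (log axis) of 5 of the 7 tested mismatch repair genes in each library, Dph1 KO in red on the left of each gene and Control in blue on the right, with a bar at the group mean (n = 2 each). All Dph1 KO points lie above the Control points of the same gene, by the largest log2 fold change in Msh3 (0.94) and the smallest in Pms2 (0.30).

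Mgmt and Msh6 act on the same lesion of guanine, Mgmt by removing it and Msh6 by recognising its mispair. Per length, Mgmt had a TPM 2.87 and 5.63 times that of Msh6 in Dph1 KO livers, against 6.29 and 8.06 times in Control livers. Both Dph1 KO ratios were below both Control ratios, and these ratios were not tested. They too carry the trend on GC content described below. In the fit that removes it, log2 fold changes were 0.20 for Mgmt and 0.42 for Msh6, neither called, against -0.16 and 0.58 before.

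The order of the 8 genes in TPM was led by Mgmt in both groups. Mgmt averaged 78.9 ± 16.6 TPM in Dph1 KO and 70.9 ± 1.76 TPM in Control (SD, n = 2 each). Apex1 came next, with 39.3 TPM in Dph1 KO and 34.8 TPM in Control, although its CPM were lower in Dph1 KO. In Dph1 KO livers Alkbh3 followed at 30.4 TPM, with a range above that of Alkbh2. Then came Alkbh2 at 23.7, Msh6 at 19.7, Polb at 19.5, Xrcc1 at 19.5 and Mpg at 18.8 TPM, each range overlapping the next. In Control livers Alkbh2 at 34.7 TPM overlapped Apex1, Alkbh3 had 25.4 TPM, Mpg at 20.4 and Xrcc1 at 18.3 TPM overlapped, and Polb at 11.1 and Msh6 at 10.1 TPM overlapped at the low end. Among all genes tested the 8 lay between percentile 61.6 and percentile 89.1 of TPM within their group.

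The fold changes of all genes followed the GC content of their transcripts, and those of the 8 genes are to be read beside this. The log2 fold changes of 12501 protein-coding genes went down with GC content at a Spearman rho of -0.617, a description across genes, which are not independent replicates. The genes poorest in GC, at 30.96 to 43.95%, had a median log2 fold change of 0.48, and those richest, at 55.63 to 72.83%, had -0.56. By library, the deviation from each gene's mean went with GC content at a rho of -0.685 and -0.183 in the Dph1 KO libraries, against 0.519 and 0.559 in the Control libraries. The part of this trend in the fold changes of single genes was not tested beyond the fit that follows.

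Alkbh2 and Xrcc1 were the richest of the 8 in GC, at 59.2% and 59.3%, and Polb was the poorest, at 43.5%. Msh6 had 48.9% and the other 4 had 51.3 to 53.3%. After the smooth trend of each library on GC content and on exon length was taken out, 0 of the 8 genes were called in either direction, where 10.6% of 12517 genes were called, and their median log2 fold change was 0.21 beside 0.01 over all genes. Alkbh2 then had a log2 fold change of -0.11 (SE 0.14; edgeR adjusted p = 0.663), while Xrcc1, of nearly the same GC content, had 0.38 (SE 0.14; edgeR adjusted p = 0.122). GC content and exon length were removed together in this fit, so the part of either alone in these shifts was not tested.

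Msh6 changed less in this fit, to 0.42 (SE 0.15; edgeR adjusted p = 0.0950), and Polb had 0.22 (SE 0.17; edgeR adjusted p = 0.428). Mgmt turned to 0.20 (SE 0.15; edgeR adjusted p = 0.393) and Alkbh3 had 0.29 (SE 0.14; edgeR adjusted p = 0.196). Mpg had -0.20 (SE 0.15; edgeR adjusted p = 0.407) and Apex1 -0.02 (SE 0.15; edgeR adjusted p = 0.942). Among the mismatch repair genes, 1 was called with the trend removed, Mlh3 was not (log2 fold change 0.38, SE 0.17; edgeR adjusted p = 0.189), and the median of the 7 was 0.41. In this fit 4.98% of genes were called higher in Dph1 KO.

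**Figure D3:**
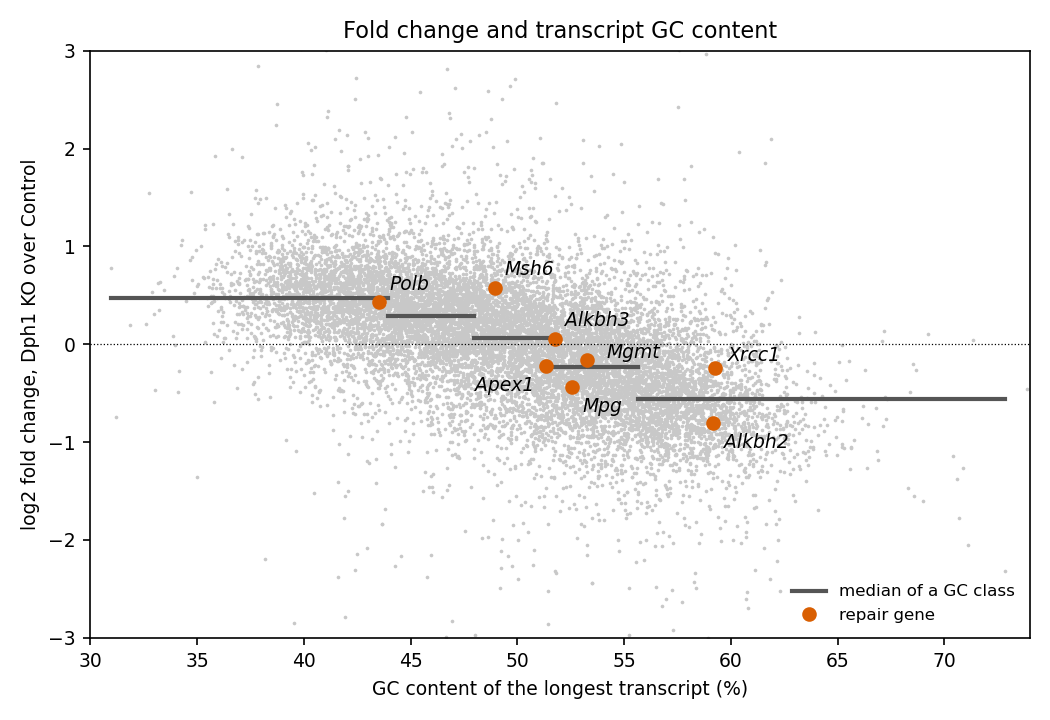
Log2 fold change of Dph1 KO over Control (y axis) against the GC content of the longest transcript in percent (x axis) for tested protein-coding genes (grey, a few outside the y axis), with the 8 repair genes in orange and the median of each of 5 GC classes as a dark bar. The class medians run from 0.48 at low to -0.56 at high GC content, with Msh6 and Xrcc1 above the bar of their class and Alkbh2 and Mpg below.

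**Figure D4:**
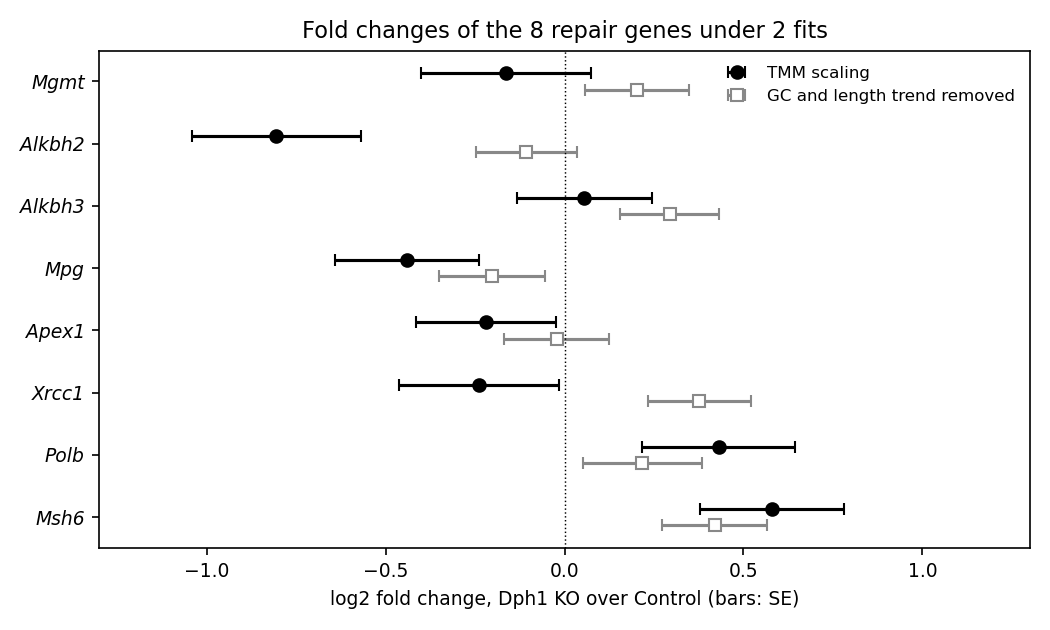
Log2 fold change of Dph1 KO over Control (x axis) for each of the 8 repair genes, with TMM scaling (black circles) and with each library's trend on GC content and exon length removed (grey squares), and bars of 1 SE (n = 2 each). Alkbh2 lies at -0.81 with TMM scaling and at -0.11 with the trend removed, Xrcc1 and Mgmt lie on either side of 0, and Msh6 lies at 0.58 and 0.42.

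Reads in introns made up a larger share of the reads of some of these genes in Dph1 KO livers. Over 8350 genes with several exons and at least 100 reads in each library, the median intron share was 6.38% and 5.22% in Dph1 KO livers, against 4.59% and 3.68% in Control livers. Alkbh2 had 13.8% and 9.41% in Dph1 KO livers, against 4.91% and 3.66% in Control livers. The exact (Clopper-Pearson) 95% interval of the higher Dph1 KO share of Alkbh2, 9.87 to 18.5%, lay above those of both Control shares, whose upper ends were 7.28 and 5.79%, and the interval of the lower one began at 6.72%. These intervals cover counting error only, and the shares were not tested between the genotypes. The medians over the 8350 genes were also higher in both Dph1 KO libraries. How many genes share that arrangement was not counted.

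Alkbh3 had an intron share of 34.8% and 25.6% in Dph1 KO livers, against 19.8% and 21.9% in Control livers, again higher in both Dph1 KO libraries. Its exon reads were 403 and 461 in Dph1 KO livers, against 377 and 378 in Control livers. Xrcc1 had 8.71% and 7.17% in Dph1 KO livers, against 6.56% and 3.65% in Control livers. Polb had the highest shares in Control, with 34.8% and 33.0% in Dph1 KO livers, against 37.0% and 27.6% in Control livers, and its groups overlapped. Mgmt had 15.0% and 10.4% in Dph1 KO livers, against 10.4% and 8.46% in Control livers, the nearest of them well within counting error of each other. The groups of Mpg and Msh6 overlapped. Apex1 was lowest, with 0.347% and 0.658% in Dph1 KO livers, against 1.16% and 1.19% in Control livers. Both Dph1 KO shares of Apex1 were thus below both Control shares, on at most 7 intron reads per library. On exon reads alone, Alkbh2 had a log2 fold change of -0.88 (edgeR adjusted p = 0.0355).

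**Figure D5:**
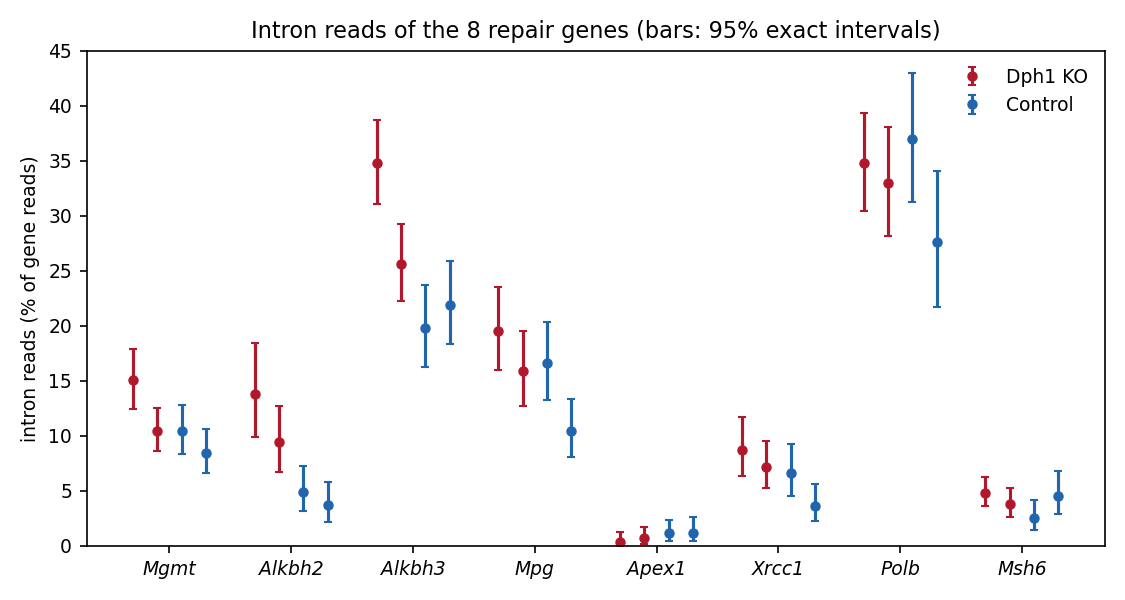
Intron reads as a percentage of gene reads for the 8 repair genes (y axis) in each library, Dph1 KO in red on the left of each gene and Control in blue on the right, with exact 95% binomial intervals that cover counting error only. Alkbh2, Alkbh3, Xrcc1 and, narrowly, Mgmt have both Dph1 KO shares above both Control shares, and Apex1 has both below. Polb and Alkbh3 have the highest shares of the 8. The medians over 8350 genes were also higher in both Dph1 KO libraries (6.38% and 5.22%, against 4.59% and 3.68% in Control).

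Some of the 8 genes share their position with others, and the sources used here do not say whether the counting used the strand, so reads in these overlaps cannot be told apart. Apex1 shares 1119 bases with Tmem55b on the other strand, and Tmem55b fell in Dph1 KO livers. Tmem55b had 454 and 547 reads in Dph1 KO livers, against 636 and 691 in Control livers (log2 fold change -0.72; edgeR adjusted p = 0.0464). Reads across exon junctions of Apex1 were 131 and 168 in Dph1 KO livers, against 154 and 102 in Control livers, and overlapped. Msh6 shares 34 bases with Fbxo11 on the other strand, and Fbxo11 rose in the same livers, with 473 and 310 reads in Dph1 KO livers, against 174 and 179 in Control livers (log2 fold change 0.82; edgeR adjusted p = 0.0442). The call of Tmem55b was lost without either Control library or Dph1 KO replicate 1, as was that of Fbxo11, which was also lost in the GC-corrected fit. Mpg shares 284 bases with Nprl3 on the other strand, and Nprl3 did not pass (log2 fold change -0.23; edgeR adjusted p = 0.457). The overlaps of Alkbh3 and Polb were with 4921507L20Rik and A930013F10Rik, each at 0 reads in all 4 libraries. Mgmt, Alkbh2 and Xrcc1 overlapped no other listed gene.

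The gene whose pattern over the 4 libraries was nearest to each repair gene was sought among 47 candidates, the other tested genes of the 5 repair lists and the 5 genes of DEN activation, by the root mean square difference of centred log2 CPM. Msh6 lay nearest to Parg, which removes poly(ADP-ribose), at 0.0489. Mpg lay nearest to Ascc2, a partner of Ascc3, at 0.0414. Alkbh3 lay nearest to Pcna at 0.0499, Polb to Pms2 at 0.0721, Apex1 to Ogg1, which removes oxidised guanine, at 0.0845, and Xrcc1 to Ascc1 at 0.0870. Mgmt lay nearest to Xrcc1 at 0.110, and both genes were lowest in Dph1 KO replicate 1. With 4 libraries in 2 groups these distances are descriptions.

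The enzymes that activate DEN were set beside the repair genes, since they turn DEN into the alkylating species. Cyp2e1 had 902 and 799 CPM in Dph1 KO livers, against 801 and 835 CPM in Control livers, with overlapping groups (log2 fold change 0.06, SE 0.26; edgeR adjusted p = 0.898). Cyp2a5 had 147 and 112 CPM in Dph1 KO livers, against 99.5 and 192 CPM in Control livers, also overlapping (log2 fold change -0.17, SE 0.30; edgeR adjusted p = 0.715). Por, the reductase that passes electrons to these enzymes, fell. It had 414 and 538 CPM in Dph1 KO livers, against 942 and 1373 CPM in Control livers (log2 fold change -1.28, SE 0.30; edgeR adjusted p = 0.0271). Leaving out Control replicate 2 ended this call (log2 fold change -0.99). So did limma-trend on log2(TPM + 0.1) and on log2(TPM + 1) (log2 fold change -0.91 and -0.90). Por was still called with the GC and length trend removed, at a smaller log2 fold change of -0.72 (edgeR adjusted p = 0.0447). Of the 5 genes listed for DEN activation, 0 rose and 1 fell, where 4.86% of all genes tested rose and 7.47% fell. Cyb5, the cytochrome that can also pass electrons to P450 enzymes, lay on the other side from Por. Cyb5 had 692 and 684 CPM in Dph1 KO livers, against 477 and 346 CPM in Control livers, without overlap (log2 fold change 0.74, SE 0.27; edgeR unadjusted p = 0.0195, adjusted p = 0.0864). With the GC and length trend removed Cyb5 was called, at 0.97 (edgeR adjusted p = 0.0211), and DESeq2, exon junction reads, scaling by library totals alone and the fit without Dph1 KO replicate 2 also gave 1 higher and 1 lower call in this list. Hepatocyte markers summed lower in both Dph1 KO libraries, as given above, while the median log2 fold change of the 6 was -0.003. Of the 6, 1 rose (Cyp3a11) and 1 fell (Apoa1). The part of these markers in the levels of Por and of the repair genes was not tested.

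Over the 5 repair lists together, 43 of 45 genes were tested, and 3 rose and 1 fell, where 4.86% of all genes tested rose and 7.47% fell, with a median log2 fold change of 0.03. Mlh3 and Ascc3 were among those that rose, and the 1 that fell was Alkbh2. With the trend on GC content removed, 1 rose and 0 fell. Without Dph1 KO replicate 2, the fit called 5 of the 8 genes, where 39.3% of all genes were called, with Polb and Msh6 higher in Dph1 KO and Mgmt, Alkbh2 and Mpg lower, and each of the other 3 such fits called 0 of the 8. The count of all genes called was likewise 5405 in that fit and 528 to 1330 in the other 3, against 1640 with all libraries.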

How the data were processed

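RNA from flash-frozen livers was extracted with Trizol and made into 4 stranded mRNA libraries, per the labels' protocols. The submitters' processing notes name GRCm38 (mm10) as the build. The aligner, the counter and its strand setting were not given in the sources used here. For each sample, 1 deposited table holds whole-number read counts per gene (total and unique reads in genes, exons, exon junctions and introns), with TPM and RPKM that the authors computed per exon length, per the file headers. The deposited RPKM and the deposited ratios, each a fraction of reads, were not used.

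Total gene reads, 19474596 to 21137358 per library and 89.3 to 90.2% uniquely matched, were filtered with filterByExpr by genotype, scaled by TMM (factors 1.16 and 1.04 in Dph1 KO, 0.945 and 0.884 in Control) and compared by edgeR 4.0.16's quasi-likelihood test in R 4.3.3, with genotype as the only term and Benjamini-Hochberg adjustment over 13303 genes at 0.05. The biological coefficient of variation was 18.5%. Each SE is the log2 fold change over the square root of F. The test was checked on simulated counts with equal spread in both groups and no trend on GC content. That check therefore does not cover the unequal spread and the GC trend of these libraries. Libraries of a group differed beyond sampling noise and were kept apart. Replicate numbers follow accession order and pair nothing.

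The longest transcript in GENCODE M21 gave GC content, for 99.5% of protein-coding genes. Each library's trend on GC content and exon length, from mgcv 1.9.3 with a basis size of 6, was an offset in the GC-corrected fit. Alternatives were DESeq2 1.42.0, limma 3.58.1 (voom, and trend on log2(TPM + 1) and log2(TPM + 0.1)), other scalings, filters and read classes, and each library left out. Gene lists were matched by name or through RefSeq symbols, with 2 of 105 symbols unmatched. Tables were made with Python 3.11.15, pandas 2.3.3 and SciPy 1.17.1.

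The named genes are the 8 members and Dph1, every called gene of each repair list or else the 2 with the highest mean TPM, the nearest gene to each member, genes overlapping a member, and Cyp2e1 and Cyp2a5. Msh3, Pms1, Exo1, Cyb5 and the called marker genes were named outside this rule, after their values were seen. A few genes taken by this rule appear in the counts alone and are not reported here. The members and lists were chosen with earlier results of these data known.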

Additional observations from a re-analysis of the deposited data

How the results depend on the processing

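The direction of Alkbh2, Mpg, Polb and Msh6 was the same in all 17 alternatives, as was that of Msh3, Mlh3, Pms1, Pms2, Ascc3, Por, Tdg, Tmem55b and Fbxo11. The exon junction alternative was added after seeing the data. Alkbh2 was called in 8 of the 17, Msh6 in 2, Mgmt, Mpg and Polb in 1 each, and Alkbh3, Apex1 and Xrcc1 in 0. Of the 8 genes, 1 was called with all libraries, 0 with the GC and length trend removed, with at least 10 reads asked of every library, with either limma-trend fit and with upper-quartile scaling, and 0 to 5 with 1 library left out. Over the 5 repair lists 4 genes were called, against 2 with DESeq2, limma-voom or exon junction reads, 1 with the GC and length trend removed, 0 with either limma-trend fit, 8 with library totals only, and 0 to 15 with 1 library left out. Over all genes 1640 were called, against 3423 with library totals only, 23 with limma-trend on log2(TPM + 0.1), 3 on log2(TPM + 1) and 528 to 5405 with 1 library left out. With 1 library left out, the lone library is assumed to vary as the other group does. Library totals only set the median log2 fold change of all genes at 0.30, against 0.04, and the share of calls that were higher in Dph1 KO at 77.0%, against 39.4%; that share was 52.5% with upper-quartile scaling. Limma-trend gave Dph1 a log2 fold change of -1.23 (TPM + 0.1) and -1.196 (TPM + 1), no longer called. Beyond the numbers of genes and libraries in each fit, the cause of these differences was not tested.

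Some log2 fold changes of genes that were not called turned sign. With the GC and length trend removed, Mgmt had 0.20, Xrcc1 0.38, Neil1 0.47, Alkbh1 -0.024, Pcna -0.10 and Cyp2e1 -0.043. On log2(TPM + 0.1) and log2(TPM + 1), Mgmt had 0.14 and 0.14, Apex1 0.18 and 0.18, Xrcc1 0.097 and 0.092, Neil1 0.21 and 0.19, Cyp2a5 0.26 and 0.26, and Nprl3 0.044 and 0.043. With library totals only, Mgmt had 0.082, Apex1 0.033, Xrcc1 0.014, Neil1 0.25, Cyp2a5 0.12 and Nprl3 0.025, and with upper-quartile scaling Neil1 had 0.074. Exon junction reads gave -0.039 for Alkbh3, 0.063 for Neil1, -0.16 for Pcna and -0.001 for Cyp2e1, exon reads gave -0.084 for Alkbh3, unique reads gave -0.014 for Pcna, and DESeq2 size factors gave -0.0001 for Pcna. With 1 library left out the range was -0.52 to 0.16 for Mgmt, -0.49 to 0.015 for Xrcc1, -0.18 to 0.20 for Neil1, -0.0014 to 0.097 for Pcna, -0.0088 to 0.16 for Cyp2e1 and -0.57 to 0.38 for Cyp2a5.

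No paired analysis was possible because the labels give the groups no shared replicate numbers.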
